A study of Mus musculus with 58 samples.

Results

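The germline genes named here were followed in chromatin-associated RNA (ChrRNA-seq) of mouse embryonic stem (ES) cells and of cultures differentiating to neural precursor cells (NPCs). The 8 genes, Dazl, Ddx4, Sycp1, Sycp3, Mael, Stk31, Slc25a31 and Hormad1, were chosen by name among the 22556 genes of each count table. They are known targets of repression by PCGF6-PRC1, a variant Polycomb repressive complex, and by DNA methylation. All 8 passed the filter on low counts, with 16227 genes tested, and no library had a count of 0 for any of them.

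In the soma, germline genes are held silent at their promoters. PCGF6-PRC1 carries the MGA and MAX proteins, which bind E-boxes, and E2F6 with its partner, which bind an E2F-type site, and DNA methyltransferases methylate the same CpG-rich promoters during early development. Female ES cells are hypomethylated compared with differentiated cells and transcribe several of these genes at a low level. PCGF3 and PCGF5 belong to other variant PRC1 complexes, which place ubiquitin on histone H2A broadly over the genome and start Polycomb recruitment to the inactive X.

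The series holds 58 libraries in 28 groups, 26 of 2 libraries and 2 of 3. All cells are female and carry 1 domesticus-type genome (Dom, strain 129) beside 1 from castaneus (Cast), with Xist on the Dom X under a doxycycline promoter. WT is the parental line iXist-ChrX-Dom. SPOC carries point mutations in the SPOC domain of SPEN, a corepressor that Xist recruits. In PCGF35, PCGF3 and PCGF5 carry an FKBP12 degron tag and are degraded by dTAG-13. PCGF35_SPOC joins the tags with the SPOC mutation. DelPID lacks the Xist region that recruits Polycomb, and DelPID_SPOC adds the SPOC mutation, which is given by sample titles. ES day 0 cells had no doxycycline, and ES day 1, NPC day 3 and NPC day 6 cells had it at 1 µg/mL for that number of days. The dTAG-13 groups had the compound from 12 h before doxycycline, at 100 µM by the labels, and the untreated groups of both degron lines did not. WT and DelPID entered with NPC libraries alone. Replicates of PCGF35_SPOC are clones F10 and F6, those of DelPID_SPOC are clones A8 and G3, and those of SPOC are clones C11 (ES cells alone), D9 and H1. Replicates of the other lines are repeat cultures of 1 line, so their spread is that between cultures and not between independently derived lines.

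Library depth was 15.9 M fragments in median (M for mega), with extremes of 2.29 M and 30 M. The shallowest 2 were both DelPID libraries, replicate 1 of NPC day 6 (2.29 M) and of NPC day 3 (6.37 M). Levels are given as CPM, a gene's counts scaled to 1 M counts per library. The summed CPM of 5 pluripotent cell markers (Pou5f1, Nanog, Zfp42, Klf2, Esrrb) fell in median from 1210 in ES day 0 libraries (range 990 to 1810) to 586 on NPC day 6 (310 to 998). The sum of 5 neural markers had a median of 37.4 CPM on ES day 0 (24.4 to 104) and 99.8 CPM on NPC day 6 (25.8 to 394). Of these, Sox1 was at 0 in every library. The neural sum mostly followed Nes and Vim, whose medians went from 17.9 to 41.1 CPM and from 18.0 to 45.1 CPM. The medians of Pax6 (1.34 and 2.52 CPM) and Fabp7 (0.0667 and 0.102 CPM) were low on both days. Pou5f1 did not fall with the pluripotent sum, with a median of 45.9 CPM on ES day 0 (41.4 to 75.5) and 61.1 CPM on NPC day 6 (25.0 to 82.6). The medians of Nanog, Zfp42, Klf2 and Esrrb fell. The NPC libraries thus held RNA of pluripotent marker genes to the end. The 6 feeder fibroblast markers summed to at most 141 CPM in any library.

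The promoters of these genes carry the letters that PCGF6-PRC1 factors are known to bind. Windows from 250 bases before to 50 bases after the start of transcription were taken from RefSeq (GRCm38.p6), and all 8 genes had an entry. CACGTG, the E-box, which reads the same on both strands, was present in 7 of the 8 windows, against 7.15% of 32851 promoters. GCGGGA, an E2F-type motif, was present on either strand in 6 of 8, against 20.0% of promoters, and both motifs in 6 of 8, against 1.99%. The motifs share no bases with each other in the windows printed. The windows held 15 to 38 CpG (median 24), against a median of 7 over all promoters. Among the other germline genes examined below, the E-box was present in 3 of 17 promoters of meiosis genes, 5 of 12 of piRNA and germ granule genes and 2 of 14 of germ cell and sperm genes. The whole windows of Dazl and Hormad1 are shown because Dazl alone had neither motif and Hormad1 had 2 E-boxes and an E2F-type motif. For the others the stretch around each E-box is shown, and capitals mark the E-box and, in Hormad1, also the E2F-type motif.
Dazl, chr17:50293571-50293870, minus strand: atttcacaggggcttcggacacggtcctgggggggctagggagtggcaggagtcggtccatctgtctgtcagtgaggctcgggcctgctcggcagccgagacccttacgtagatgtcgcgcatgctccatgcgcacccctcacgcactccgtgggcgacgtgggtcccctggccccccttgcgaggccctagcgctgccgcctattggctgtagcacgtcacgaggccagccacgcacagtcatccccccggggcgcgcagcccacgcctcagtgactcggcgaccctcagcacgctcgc
Hormad1, chr3:95559427-95559726, plus strand: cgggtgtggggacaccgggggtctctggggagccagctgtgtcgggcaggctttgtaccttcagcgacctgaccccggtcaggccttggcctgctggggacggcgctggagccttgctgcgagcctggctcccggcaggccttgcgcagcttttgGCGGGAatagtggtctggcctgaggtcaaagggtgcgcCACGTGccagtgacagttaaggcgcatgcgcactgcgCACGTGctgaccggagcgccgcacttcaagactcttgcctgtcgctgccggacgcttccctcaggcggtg
Ddx4, chr13:112652302-112652371, minus strand: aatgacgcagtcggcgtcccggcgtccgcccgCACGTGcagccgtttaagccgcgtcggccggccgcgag
Sycp1, chr3:102936157-102936226, minus strand: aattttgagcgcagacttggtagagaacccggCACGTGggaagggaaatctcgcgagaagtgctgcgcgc
Sycp3, chr10:88459491-88459581, plus strand: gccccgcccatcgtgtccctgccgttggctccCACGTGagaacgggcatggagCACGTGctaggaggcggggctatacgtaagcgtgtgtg
Mael, chr1:166238930-166238994, minus strand: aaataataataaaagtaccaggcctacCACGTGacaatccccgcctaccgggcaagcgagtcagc
Stk31, chr6:49395452-49395521, plus strand: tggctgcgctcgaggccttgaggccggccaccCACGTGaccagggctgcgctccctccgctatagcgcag
Slc25a31, chr3:40708746-40708815, plus strand: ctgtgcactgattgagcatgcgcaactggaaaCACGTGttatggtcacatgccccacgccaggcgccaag
The E-box nearest to its start was that of Hormad1, 20 bases before it, and that of Ddx4 followed at 29 bases. The one farthest away was that of Mael, at 223 bases. A match of letters does not show that a factor binds there.

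Per kb of gene, Dazl and Hormad1 lay above and the other 6 below the median level of all tested genes. The median over the 58 libraries was highest for Dazl, at 1.24 CPM per kb, and Hormad1, at 0.825, against 0.753 for the median of all tested genes. It was 0.488 for Stk31, 0.425 for Sycp3, 0.335 for Ddx4, 0.31 for Sycp1, 0.109 for Mael and 0.0515 for Slc25a31. Mael and Slc25a31 thus had the lowest levels and the fewest fragments, down to counts of 5 and 2 in a library, and their values carry the largest counting error. The genes lie apart from each other on 6 chromosomes of mm10: Dazl on 17 (50279392 to 50293620), Ddx4 on 13 (112598332 to 112652310), Sycp3 on 10 (88459586 to 88473236), Mael on 1 (166201384 to 166238744), Stk31 on 6 (49395603 to 49469502), and Slc25a31 (40708870 to 40726094), Hormad1 (95559676 to 95587860) and Sycp1 (102818498 to 102936100) on 3.

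**Figure D1:**
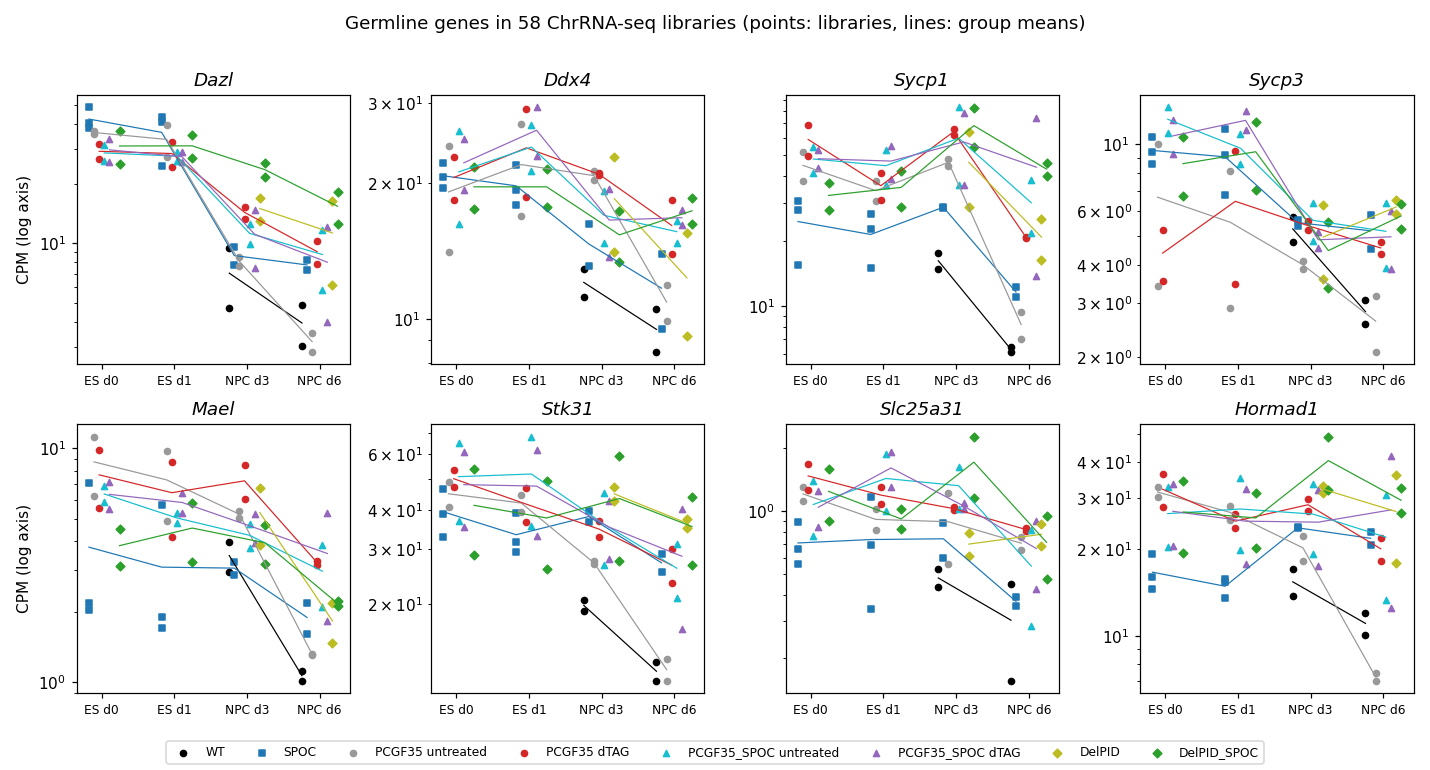
Level of each germline gene (CPM, log axis) in 58 libraries by stage, with points for libraries and lines joining the means of each line and treatment. Dazl falls in all 6 series measured from ES day 0 to NPC day 6, from 25.1 to 48.6 CPM down to 2.83 to 18.2 CPM.

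The first comparison asked how these genes changed over differentiation. Averaged over the 6 series that have both stages (12 libraries against 13), all 8 genes were lower on NPC day 6 than in ES cells before induction by edgeR's quasi-likelihood test, against 29.4% of all tested genes that were lower. Their median log2 fold change was -0.82, against 0.00474 for all genes. This fit did not model the clones and replicates that these libraries share. In bulk RNA, fewer cells that transcribe a gene and less RNA per cell cannot be told apart. The pluripotent marker sum fell over the same libraries, and its part in the change was not tested.

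Dazl, an RNA-binding protein needed for germ cell development, changed most. It ranged from 25.1 to 48.6 CPM in the 13 ES day 0 libraries (median 33.6) and from 2.83 to 18.2 CPM in the 16 NPC day 6 libraries (median 7.54). These ranges did not overlap. The log2 fold change was -2.01 ± 0.16 (SE, adjusted p = 2.14e-12 by edgeR). Stage medians and ranges here and below include the NPC libraries of WT and DelPID, which these log2 fold changes do not. Ddx4, the germ cell RNA helicase Vasa, went from 14.1 to 26.1 CPM (median 20.6) to 8.47 to 18.5 CPM (median 14.3). Its ranges overlapped, and it fell by 0.47 ± 0.11 on the log2 scale (adjusted p = 0.000514 by edgeR).

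Sycp1 and Sycp3 encode structural proteins of the synaptonemal complex, which joins homologous chromosomes in meiosis. Sycp1 fell by 0.87 ± 0.20 on the log2 scale and Sycp3 by 0.81 ± 0.17 (adjusted p of 0.000341 and 0.00014 by edgeR). Sycp1 did so late: its median was 41.1 CPM on ES day 0, 46.2 CPM on NPC day 3 and 18.6 CPM on NPC day 6. Sycp3 had medians of 9.44, 5.18 and 4.64 CPM at the same stages, so most of its difference was already present on NPC day 3. Hormad1, an adaptor of meiotic chromosome axes, had medians of 28.1, 25.5 and 19.4 CPM. It had the smallest change, a log2 fold change of -0.39 ± 0.17 (adjusted p = 0.0465 by edgeR). This call was lost when the compared groups were fitted alone (adjusted p = 0.0817), without clone A8 (0.0978), and on leaving out any one of 16 single libraries.

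Mael, a piRNA pathway protein that guards against transposons, fell by 1.25 ± 0.22 on the log2 scale (adjusted p = 1.15e-05 by edgeR), from a median of 5.86 to 2.1 CPM. Stk31, a germ cell protein with Tudor and kinase domains, fell by 0.84 ± 0.16 (adjusted p = 4.45e-05), from a median of 46.6 to 26.0 CPM. Slc25a31, the germline ADP/ATP carrier of mitochondria, fell by 0.77 ± 0.21 (adjusted p = 0.00181), from a median of 1.12 to 0.667 CPM. The ranges of all 3 overlapped between the stages.

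The size of the fall differed by line in the values, as the plot by series shows. In untreated PCGF35, 7 of 8 genes fell, against 15.9% of all tested genes. The log2 fold changes there were -3.48 ± 0.42 for Dazl, -2.69 ± 0.58 for Mael, -2.44 ± 0.52 for Sycp1 and -2.11 ± 0.44 for Hormad1, and all 8 genes had both NPC day 6 libraries below both ES day 0 libraries. Such separation of libraries was counted for the 8 genes alone, here and in the comparisons below. Its share over all tested genes is not given here, so the counts only describe these genes. In dTAG-13 treated PCGF35, 2 genes passed the test as lower (Dazl and Sycp1), against 6.95% of genes, and 6 had NPC day 6 below ES day 0 in every library.

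In the other series fewer genes passed the test, although more of them were below their ES day 0 libraries without overlap. Dazl alone passed it in untreated PCGF35_SPOC (background 4.47%), where 5 genes lay below without overlap, and in treated PCGF35_SPOC (3.04%), where 4 did. In DelPID_SPOC Dazl alone passed (background 9.41%, adjusted p = 0.0498 by edgeR), with 3 genes below and 1 above without overlap. In SPOC, Dazl and Ddx4 passed, against 16.8% of genes, with 6 genes below and 1 above.

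The genes above were Hormad1 in SPOC, with a log2 fold change of 0.48 ± 0.38, and Sycp1 in DelPID_SPOC, with 0.41 ± 0.48, neither called. Sycp1 had 37.1 and 27.9 CPM on ES day 0 of DelPID_SPOC and 46.0 and 40.0 CPM on NPC day 6. Hormad1 in DelPID_SPOC had a log2 fold change of 0.15 ± 0.41, and its stages overlapped.

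With the replicate or clone as a block in the 2 compared groups alone, Dazl was not called in untreated PCGF35_SPOC (adjusted p = 0.0607 by edgeR, 0.736% of genes lower) or in treated PCGF35_SPOC (0.169, 0.0134%). That fit called 4 genes as lower in treated PCGF35, against 7.2% of genes, and 4 in SPOC, against 19.3%.

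**Figure D2:**
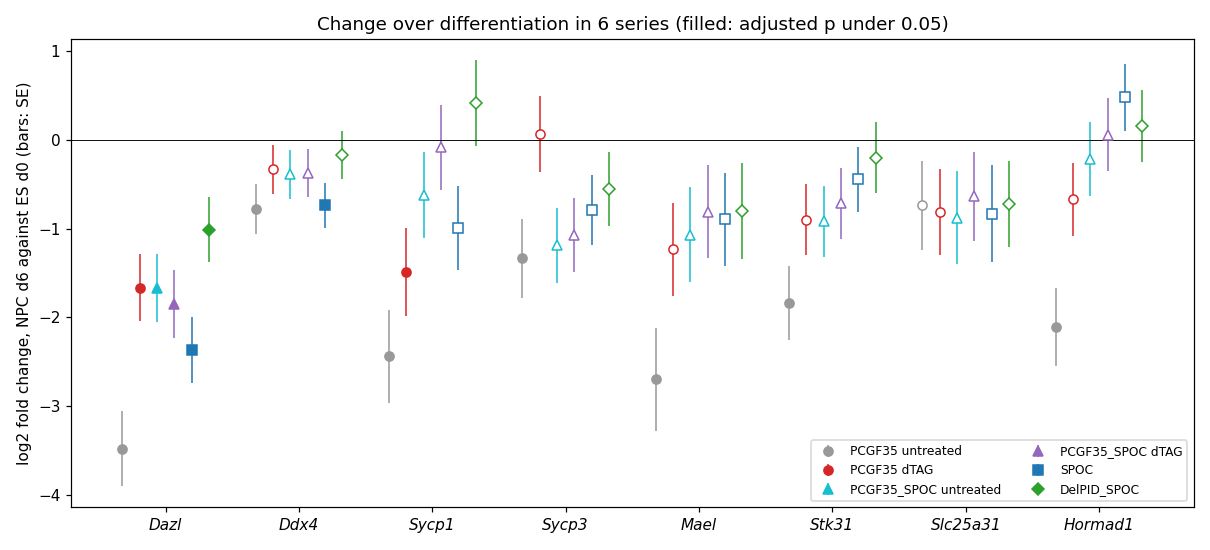
Log2 fold change of each germline gene from ES day 0 to NPC day 6 in 6 series, with bars for the SE of the fit and filled symbols for an adjusted p under 0.05. Untreated PCGF35 has the lowest value for Dazl (-3.48), Mael (-2.69), Sycp1 (-2.44) and Hormad1 (-2.11).

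Whether the fall depended on the SPOC mutation was tested as a difference between untreated PCGF35_SPOC and untreated PCGF35. No gene of 16227 was called by edgeR (0%), with 4 of the 8 germline genes among 1055 genes at an unadjusted p under 0.05, and DESeq2 also called 0. The difference was 1.81 ± 0.55 on the log2 scale for Dazl, 1.89 ± 0.60 for Hormad1, 1.81 ± 0.70 for Sycp1 and 1.62 ± 0.78 for Mael, each a smaller fall in the line with the mutation (adjusted p from 0.739 to 0.756). The number of the 8 called depended on which clone of PCGF35_SPOC was left out. Either way 1 library per PCGF35_SPOC group remained, whose spread was assumed to be that of the other groups.

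Degradation of PCGF3 and PCGF5 was then examined, since these proteins sit in other complexes than PCGF6. Averaged over the 4 stages in PCGF35 (8 libraries against 8), edgeR called no gene of 16227 (0%). The 8 germline genes had log2 fold changes of 0.22 to 0.59, all above 0, and 4 of them were among the 793 genes at an unadjusted p under 0.05. DESeq2 called 1 gene and none of the 8. Treated and untreated cultures of a replicate were grown in parallel. A fit of these 16 libraries with the replicate within each stage as a block called 5 of the 8 as higher. It called 6.84% of 15654 genes in either direction. The 5 called with the block were Sycp1 (0.59 ± 0.10, adjusted p = 0.0108 by edgeR), Hormad1 (0.49 ± 0.07, 0.00597), Dazl (0.46 ± 0.07, 0.0059), Stk31 (0.42 ± 0.07, 0.00847) and Mael (0.37 ± 0.09, 0.0433). The same 16 libraries fitted without the block gave no call among the 8.

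By the study's methods dTAG-13 stayed in the medium during differentiation, so stage and length of degradation cannot be told apart. For 7 of the 8 genes the log2 fold change in PCGF35 was highest on NPC day 6, the exception being Slc25a31. Dazl had 3.53 and 2.83 CPM in the untreated PCGF35 libraries and 10.3 and 7.8 CPM in the treated ones. Hormad1 had 7.44 and 6.97 CPM untreated and 18.2 and 21.9 CPM treated. Both genes were higher in each treated library than in either untreated one.

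The meiotic gene Sycp1 had 7.06 and 9.36 CPM untreated and 20.8 and 20.7 CPM treated. Stk31 had 13.4 and 11.4 CPM untreated and 29.9 and 23.4 CPM treated, and Mael 1.32 and 1.31 CPM untreated and 3.18 and 3.3 CPM treated. These 3 did not overlap between treatments either, and neither did the remaining 3, Sycp3 (2.62 and 4.55 CPM in mean), Ddx4 (10.9 and 16.1 CPM) and Slc25a31 (0.705 and 0.818 CPM). The share of all genes without overlap is not given here.

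On NPC day 6 itself, fitting all 58 libraries together called 0 of the 8. There edgeR and DESeq2 called 0 of all genes and 6 of the 8 were among 756 genes at an unadjusted p under 0.05 (adjusted p of at least 0.981). The 4 libraries of that day fitted alone without a block gave 4 calls among the 8 (Dazl, Hormad1, Sycp1 and Stk31, adjusted p of 0.0366 to 0.0456 by edgeR), against 0.814% of genes higher. With the replicate block in the 16 PCGF35 libraries, the calls were Dazl (1.51 ± 0.17, adjusted p = 0.00116 by edgeR), Hormad1 (1.45 ± 0.16, 0.00116), Stk31 (1.10 ± 0.15, 0.0028), Sycp1 (1.36 ± 0.24, 0.00898) and Mael (1.29 ± 0.24, 0.0116). These were 5 of 8, against 7.82% of genes called in either direction. On the same day the pluripotent marker sum was 310 to 346 CPM untreated and 411 to 557 CPM treated, and the part of that difference in the result was not tested.

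On NPC day 3, 6 of the 8 genes were higher in both treated libraries than in both untreated ones. With the block, Dazl alone was called (0.84 ± 0.14, adjusted p = 0.0353 by edgeR), against 0.537% of genes in either direction. It had 8.52 and 7.64 CPM untreated and 13.3 and 15.3 CPM treated. In ES cells no gene of the 8 was called in either fit on day 0 or day 1. Dazl was lower in both treated ES day 0 libraries (31.5 and 26.7 CPM) than in both untreated ones (35.5 and 36.9 CPM), with a log2 fold change of -0.30 ± 0.36.

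**Figure D3:**
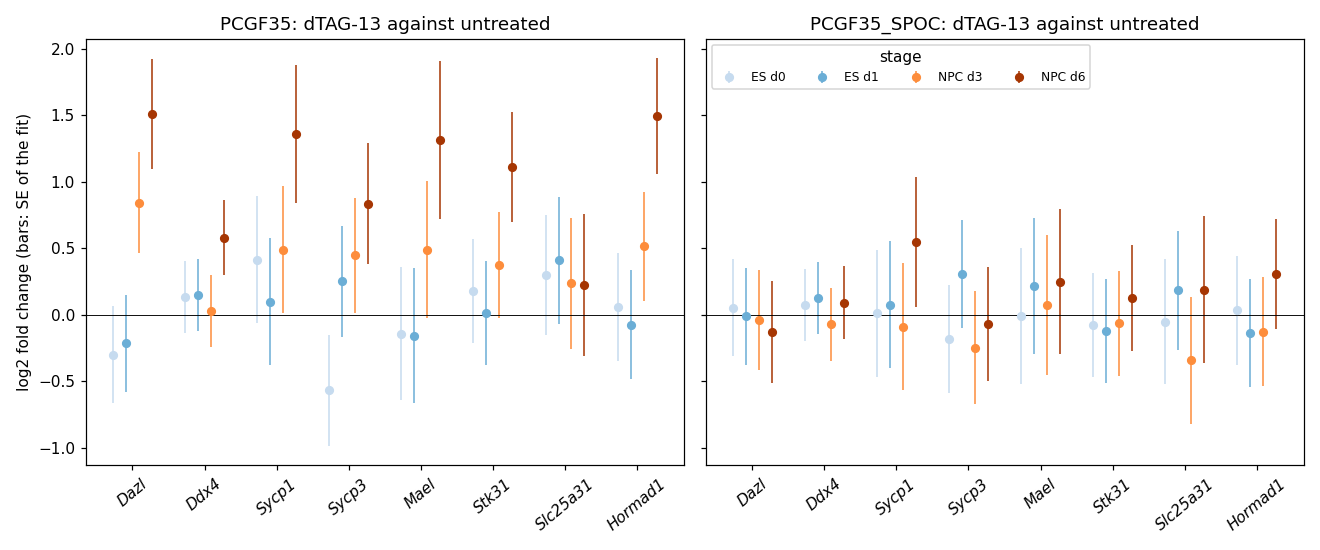
Log2 fold change of each germline gene between dTAG-13 treated and untreated cells by stage, in PCGF35 (left) and PCGF35_SPOC (right), with bars for the SE of the fit without a block. In PCGF35 on NPC day 6, Dazl stands at 1.51 and Hormad1 at 1.49, and in PCGF35_SPOC at -0.13 and 0.31.

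In PCGF35_SPOC the same treatment gave other values. Averaged over stages, the 8 genes had log2 fold changes from -0.05 to 0.14, edgeR called no gene (0%) and none of the 8 was among the 308 genes at an unadjusted p under 0.05. DESeq2 called 2 genes, none of the 8. With clones as a block, 3.86% of genes were called and none of the 8. At single stages none of the 8 was called in any of the fits with or without the block. On NPC day 6 Dazl had 5.82 CPM untreated and 4.01 CPM treated in clone F10, and 11.7 and 12.0 CPM in clone F6. Hormad1 had 13.3 and 12.5 CPM in F10, and 30.7 and 42.2 CPM in F6. The clones differed more from each other than the treatments did for both genes.

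The difference between the lines in their response to dTAG-13 was tested directly. Over all 58 libraries, no gene was called by edgeR or DESeq2 (0%), 170 genes were at an unadjusted p under 0.05 and none of these was among the 8. The compared groups fitted alone gave no call among the 8 without the block and 3 with it, against 0.826% of genes in either direction. The 3 were Dazl (-0.53 ± 0.11, adjusted p = 0.0419 by edgeR), Hormad1 (-0.49 ± 0.10, 0.0351) and Stk31 (-0.47 ± 0.10, 0.0419), each with a smaller response in the line with the SPOC mutation. Whether the response changed with differentiation was tested over both lines, and 0 genes were called by edgeR and DESeq2 (0%), with 2 of the 8 among 388 genes at an unadjusted p under 0.05. With the block none of the 8 was called there. The length of degradation differed between these stages too.

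The SPOC mutation on its own was compared in 3 settings. Against WT in NPC cultures (4 libraries against 4), 1 of the 8 genes was higher, Stk31, against 1.11% of all genes that were higher. Stk31 had 20.7 and 19.0 CPM in WT and 39.5 and 36.6 CPM in SPOC on day 3. On day 6 it had 11.4 and 13.1 CPM in WT and 25.3 and 28.9 CPM in SPOC. No library of one line reached the other on either day, and the log2 fold change was 1.10 ± 0.29 (adjusted p = 0.0394 by edgeR). The call was lost on leaving out any of the 8 libraries, with adjusted p from 0.0729 to 0.187, and without TMM normalization (0.0509).

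All 8 genes had log2 fold changes above 0 in this comparison (median 0.61, all genes -0.02). The other 7 ranged from 0.35 for Ddx4 to 0.91 for Sycp1, and none was called.

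In the degron line without dTAG-13, PCGF35_SPOC against PCGF35 over 4 stages, none of the 8 was called by edgeR, against 0.234% of genes, with 3 among 2024 genes at an unadjusted p under 0.05. DESeq2 called 1 of the 8, and its share of all genes called is not given here. Sycp3 had the lowest adjusted p, 0.116, with a log2 fold change of 0.75 ± 0.21. On NPC day 6 the 2 untreated lines did not overlap in 7 of 8 genes, all higher with the mutation, and the share of all genes without overlap is not given here. Hormad1 had 7.44 and 6.97 CPM in PCGF35 and 13.3 and 30.7 CPM in PCGF35_SPOC, and Sycp1 had 7.06 and 9.36 CPM and 21.7 and 38.4 CPM. Over the 4 stages the number of the 8 called depended on which clone was left out, with 1 library per PCGF35_SPOC group in each case.

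DelPID_SPOC against DelPID in NPC cultures called none of the 8, against 2.6% of genes, with 1 of the 8 among 3087 genes at an unadjusted p under 0.05 and none called by DESeq2. Log2 fold changes ran from -0.12 ± 0.31 for Sycp3 to 0.78 ± 0.35 for Sycp1.

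Deletion of the Polycomb-recruiting region of Xist was compared between DelPID and WT in NPC cultures. There 4 genes were higher in DelPID, against 4.65% of all genes that were higher, and none was lower. Dazl had 4.7 and 9.4 CPM in WT and 13 and 16.9 CPM in DelPID on day 3. On day 6 it had 3.03 and 4.87 CPM in WT and 6.11 and 16.4 CPM in DelPID. The lines did not overlap on either day, and the log2 fold change was 1.42 ± 0.28 (adjusted p = 0.0014 by edgeR).

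Sycp1 (1.66 ± 0.37, adjusted p = 0.00394 by edgeR), Stk31 (1.43 ± 0.29, 0.00195) and Hormad1 (1.25 ± 0.30, 0.00764) were the other calls. Sycp1 had 14.8 and 17.6 CPM in WT against 28.6 and 63.9 CPM in DelPID on day 3, and 6.15 and 6.45 CPM against 16.4 and 25.3 CPM on day 6. Its higher DelPID value on each day was the shallow library, and without these 2 libraries the log2 fold change was 1.11 and the call was lost (adjusted p = 0.0821). Without DelPID NPC day 6 replicate 2, the calls of Dazl (adjusted p = 0.118) and Hormad1 (0.103) were lost. With NPC day 3 alone 0 of the 8 were called, and with day 6 alone 2. The share of all genes called on single days is not given here.

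Induction of Xist for 1 day in ES cells (13 libraries against 13) moved none of the 8, against 0.0924% of genes by edgeR, with none among the 658 genes at an unadjusted p under 0.05 and none called by DESeq2. With the replicate block, Hormad1 alone was called, against 8.1% of genes in either direction, with a log2 fold change of -0.16 (adjusted p = 0.031 by edgeR).

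The NPC day 6 groups also differed in allelic X-linked expression. The Dom share of X-linked fragments, with Xist left out, was 5.98% in untreated PCGF35, 7.15% in WT, 14.9% in treated PCGF35, 20.6% in DelPID, 23.7% in SPOC, 24.2% in untreated PCGF35_SPOC, 30.6% in DelPID_SPOC and 34.0% in treated PCGF35_SPOC. In ES day 0 groups, without Xist induction, it was 30.8% to 32.1%, so DelPID_SPOC lay close to the uninduced share, treated PCGF35_SPOC above it and the other 6 groups below. The share was summed over the whole X, although by the study a recombination event leaves part of it uninformative for alleles in this line. For a clone with the degron tags and the SPOC mutation, the study read an upward allelic skew in NPC samples as loss of the Cast X. Loss of an X was not tested here. In the order above, mean Hormad1 was 7.2, 11, 20.0, 27.0, 21.8, 22, 29.6 and 27.3 CPM. The groups with the lowest Dom share had the lowest means of Hormad1, and the same 2 groups had the lowest means of Dazl (3.18 and 3.95 CPM), Stk31 (12.4 and 12.3 CPM), Sycp1, Sycp3, Mael and Ddx4. Slc25a31 was lowest in WT (0.303 CPM) and SPOC (0.372 CPM). On NPC day 3, WT (12.5%) and untreated PCGF35 (12.8%) had the lowest shares and the lowest means of Dazl, Stk31 and Hormad1, but not of the other genes. Untreated PCGF35 then had 46.2 CPM of Sycp1 and 20.8 CPM of Ddx4, where SPOC (27.0%) had 28.7 and 14.6 CPM.

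The pluripotent marker sum in that order was 328, 557, 484, 722, 781, 686, 975 and 650 CPM, and the neural marker sum was 279, 122, 81.1, 99.8, 35.9, 197, 80.5 and 200 CPM. The means of PCGF35_SPOC join 2 clones that lay far apart. Their pluripotent sums were 399 and 972 CPM untreated and 327 and 974 CPM treated. Their neural sums were 51.5 and 344 CPM untreated and 41.5 and 359 CPM treated. The parts of X dosage and of the state of differentiation in the germline gene levels were not tested.

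**Figure D4:**
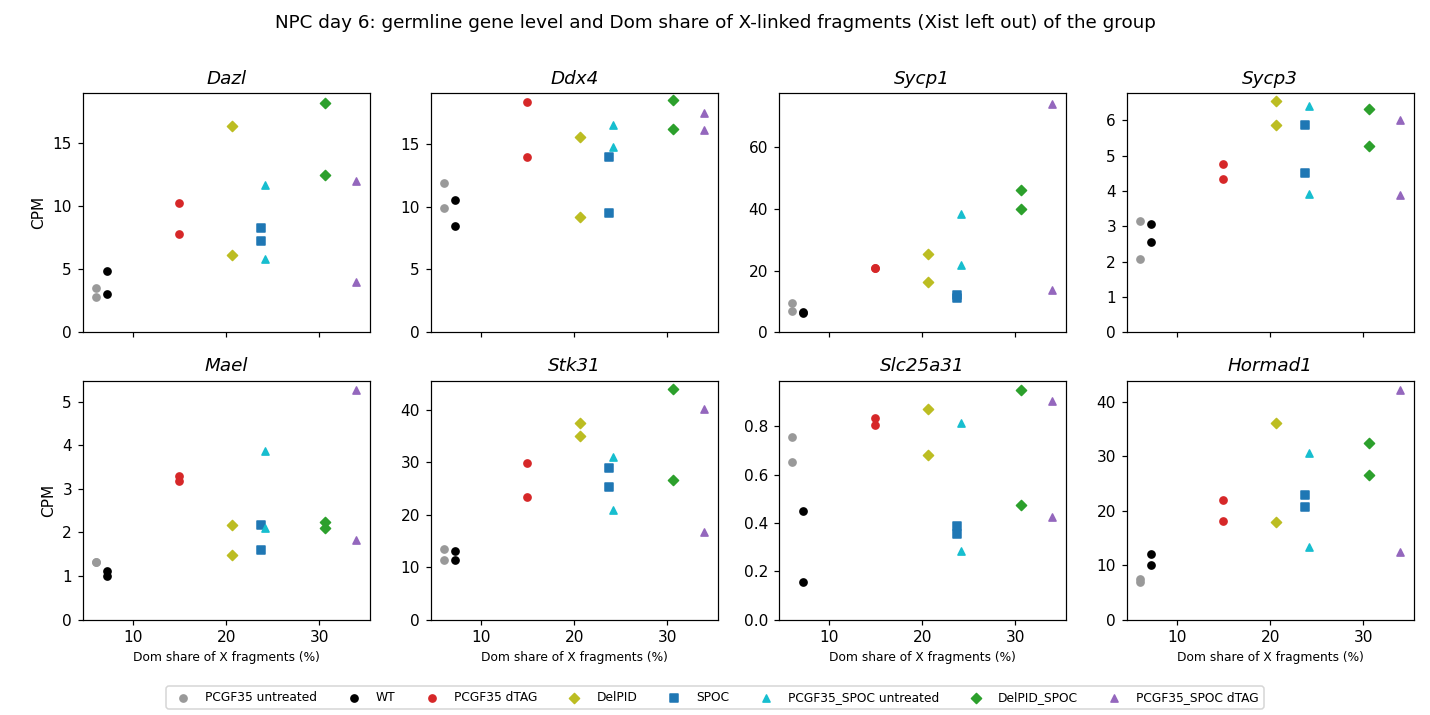
Level of each germline gene (CPM) in the NPC day 6 libraries against the Dom share of X-linked fragments of their group (%), Xist left out, with 2 points per group. Untreated PCGF35 (5.98%) and WT (7.15%) hold the lowest Hormad1 values, 6.97 to 12.0 CPM, where the other groups span 12.5 to 42.2 CPM.

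Clones of a line were not alike. In PCGF35_SPOC, clone F6 was above clone F10 in 8 of 8 groups for Dazl, Ddx4, Sycp1, Stk31 and Hormad1, with median ratios of 1.28, 1.29, 1.62, 1.75 and 1.79. The widest gap was Sycp1 on NPC day 6 with dTAG-13, with 74.1 CPM in F6 and 13.7 CPM in F10. In DelPID_SPOC, clone A8 was above clone G3 in 4 of 4 groups for Ddx4, Sycp1, Sycp3, Stk31, Slc25a31 and Hormad1. The study reports a tetraploid DelPID_SPOC clone, named clone G there, and a sub-population of XO cells in clone F6 of PCGF35_SPOC. It sub-cloned F6 before ChrRNA-seq. The PCGF35_SPOC clones also differed in the pluripotent and neural marker sums on NPC day 6. The parts of karyotype and of the state of differentiation in the clone differences were not tested. Mael had 7.11 CPM in clone H1 of SPOC on ES day 0 and 2.17 and 2.04 CPM in clones C11 and D9. On ES day 1 it had 5.71 CPM in H1 and 1.7 and 1.89 CPM in the others, so H1 stood above them on both days.

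Cultures of 1 line differed as well. Sycp3 had 3.41 CPM in replicate 1 and 9.96 CPM in replicate 2 of untreated PCGF35 on ES day 0, and Mael had 6.27 and 11.2 CPM. Replicate 2 was also the higher for both genes in treated ES day 0 cells.

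The hybrid genome gave the allele of origin of these transcripts. Over all libraries, 91.7% of the 1658 allelic fragments of Mael came from Dom, with 86.4% to 100% in the 24 groups with at least 20 such fragments. Sycp1 was the opposite, with 13.4% of 9961 fragments from Dom (8.34% to 34.1% over 28 groups). Of 13038 autosomal genes with at least 500 allelic fragments, 0.629% were as far from 50% as Mael and 1.29% as far as Sycp1. The autosomal median was 52.0%, and the range from the 5th to the 95th percentile was 31.6% to 69.7%.

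The remaining genes lay within that range: Stk31 at 34.1%, Dazl at 38.6%, Hormad1 at 39.4%, Ddx4 at 44.6%, Sycp3 at 66.3% and Slc25a31 at 69.4%. Mael was skewed to Dom at each stage, with 89.6% on ES day 0 and 96.7% on NPC day 6, where 182 allelic fragments remained. Dazl went from 41.1% on ES day 0 to 33.4% on NPC day 6. Sycp1, Hormad1 and Slc25a31 lie on the same chromosome, whose median share was 53.2%. Differences in mapping between the strains were not tested.

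**Figure D5:**
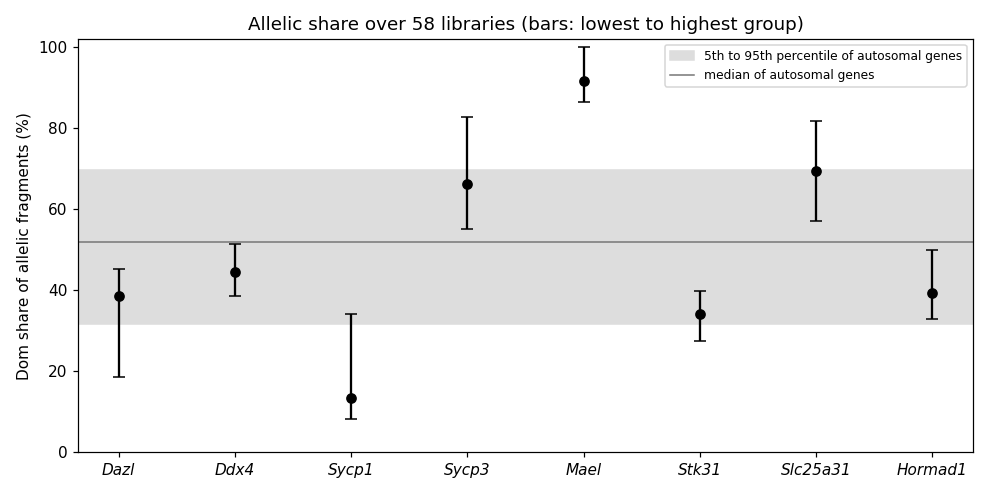
Dom share of allelic fragments (%) of each germline gene over 58 libraries, with bars from the lowest to the highest group with at least 20 allelic fragments and a grey band for the 5th to 95th percentile of autosomal genes. Mael (91.7%) and Sycp1 (13.4%) lie outside the band of 31.6% to 69.7%.

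Across the 28 groups, with each group mean of log2 CPM centred on its stage, pairs of the 8 genes correlated with r from -0.0154 to 0.891 (median 0.511), and 27 of 28 pairs were above 0. These groups share lines, clones and depth, so the values are a description. The closest pair was Stk31 and Hormad1. Among all tested genes, the patterns most like Sycp1 were those of the meiotic genes Smc1b (r = 0.949) and Tex11 (0.944), and Mael was closest to Insc (0.899) and to the piRNA gene Piwil2 (0.885). Stk31 was closest to Mcmdc2 (0.914) and Pnma5 (0.905), Hormad1 to Abcc2 (0.942) and Pnma5 (0.898), and Dazl to Dkc1 (0.888) and Zrsr2 (0.864). Ddx4 was closest to Slc24a5 (0.822) and Sycp1 (0.8), Sycp3 to Lamp2 (0.837) and Ddx26b (0.835), and Slc25a31 to Xlr4b (0.824) and Trpc5os (0.807). Tex11, Pnma5, Dkc1, Zrsr2, Lamp2, Ddx26b, Xlr4b and Trpc5os are X-linked.

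Other germline genes were counted beside the 8. Of 49 listed, 40 were tested. Over differentiation 27 fell and 3 rose, against 29.4% of all genes in each direction, with a median log2 fold change of -0.93. The meiotic genes that fell most were Stra8 (-1.97), Spata22 (-1.89) and Syce1 (-1.78), those of the piRNA pathway Asz1 (-2.91), Piwil1 (-1.51) and Gtsf1 (-1.28), and those of germ cells and sperm Pdha2 (-3.43), Tuba3b (-2.62) and Tex19.1 (-1.68). The 3 that rose were Dmc1 (0.38), Tdrd5 (0.73) and Tdrd1 (0.54).

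In DelPID against WT, 8 of the 40 were higher and none lower, led by Tuba3b (2.52), Asz1 (2.05) and Smc1b (2.02). In SPOC against WT, Syce1, Gtsf1 and Sohlh2 were higher and Tdrkh lower. With dTAG-13, edgeR called 0 of the 40 in either line, and their median log2 fold change in PCGF35 on NPC day 6 was 0.80, against 0.02 for all genes.

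Genes of the repressors were counted over differentiation too, against the same 29.4% of all genes higher and 29.4% lower. Of 14 genes for PCGF6-PRC1 subunits, 6 rose and 2 fell. Ring1 (1.08 ± 0.15), Tfdp1 (0.91 ± 0.08) and E2f6 (0.55 ± 0.08) rose most, and Yaf2 (-0.25) and Hdac2 (-0.22) fell. Of 10 genes for DNA and H3K9 methylation, 7 rose, with Dnmt3b (1.44 ± 0.22), Dnmt3a (0.63 ± 0.10) and Ehmt1 (0.48 ± 0.07) first, and the demethylases Tet2 (-1.48 ± 0.18) and Tet1 (-0.47 ± 0.15) fell. No gene of either list was called with dTAG-13 by edgeR in PCGF35 or PCGF35_SPOC. In SPOC against WT, Mga, the E-box binding subunit, was higher by 0.47 ± 0.12 on the log2 scale (adjusted p = 0.0257 by edgeR). In DelPID against WT, Tfdp1 of the same list had a log2 fold change of -0.83 ± 0.14 (adjusted p = 0.000315 by edgeR).

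Since whole transcripts were counted with introns, transcription running in from an upstream gene on the same strand was looked for within 30 kb. Of the 8, 5 had such a neighbour. That of Sycp1, Nr1h5, had a median of 0 CPM and that of Hormad1, Ctss, 0.181 CPM. That of Sycp3, Gnptab, had a log2 fold change of 0.17 over differentiation (adjusted p = 0.0551 by edgeR), where Sycp3 fell. Fam221a next to Stk31 fell by 0.61 on the log2 scale (adjusted p = 0.00176) and Intu next to Slc25a31 by 0.25 (0.00412) over differentiation. With dTAG-13 in PCGF35 on NPC day 6, Gnptab, Fam221a and Intu had log2 fold changes of 0.20, -0.03 and -0.03.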

How the data were processed

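ChrRNA-seq libraries were analysed from the count tables. As stated in their methods and labels, the authors removed rRNA reads with Bowtie2 2.3.2, aligned read pairs with STAR 2.4.2a to mm10 with strain differences masked, used SNPsplit to assign them to alleles, and ran featureCounts for gene counts on the annotated strand, introns included. The deposited counts are raw and have 3 columns per library, for all fragments, Cast and Dom. Which column is Dom was checked on Xist, which is expressed from the Dom X. In the induced groups Dom held 99.7% to 100% of allelic Xist fragments, except 89.0% of 35729 in treated PCGF35 on ES day 1. On ES day 0 the share was 73.8% of 818 fragments in SPOC and 82.0% of 1760 in treated PCGF35. It was 97.1% to 99.6% in the other ES day 0 groups. The source of the Cast fragments of Xist was not tested.

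CPM was computed from the deposited counts of all genes of a library. Counts were tested with edgeR 4.0.16 (quasi-likelihood test, filterByExpr with a minimum count of 10, TMM, 1 mean per group over all 58 libraries) in R 4.3.3, with Benjamini-Hochberg adjustment over all 16227 genes and a threshold of 0.05. DESeq2 1.42.0 and other normalizations, filters, sample sets and left-out libraries were alternatives. Fits without 1 library kept the dispersion trend of all libraries. The procedure was checked on simulated data with known changes. Counting error was exceeded between all replicate pairs (chi-square per degree of freedom 11.5 to 138 over 32 pairs), so no library repeats another. Errors are SE of the log2 fold change.

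Treated and untreated PCGF35 cultures of a replicate were grown in parallel per the study's methods, and their deviations from the group means correlated by 0.186 to 0.658 within a stage. Clones pair the PCGF35_SPOC libraries (0.659 to 0.839). For the dTAG-13 comparisons the block was the replicate or clone within each stage. For differentiation and Xist induction it was the replicate or clone across stages. It was fitted in the compared groups alone (all 4 stages of a line for single stages), so it changes 2 choices at once. WT and SPOC, and DelPID and DelPID_SPOC, were also differentiated side by side per the study, but the labels do not say which replicate went with which clone, and no paired fit of these was made.

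The germline genes and the other gene lists were chosen with earlier results of these data known. All 8 are reported. From the other lists, at most 3 genes per list and direction are named, by size of change among those called, and for each of the 8 the 2 genes with the most similar pattern. Promoter sequences are from RefSeq, GRCm38.p6.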

Additional observations from a re-analysis of the deposited data

Results flagged for a closer look

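The response to dTAG-13 differed between the degron lines for 3 of the 8 genes when the replicate or clone was a block. The response in PCGF35_SPOC minus that in PCGF35, on the log2 scale, was -0.53 for Dazl, -0.49 for Hormad1 and -0.47 for Stk31. Without the block none of these differences passed the threshold, over all libraries or in the compared groups alone. For Sycp1 the blocked difference was -0.53 ± 0.18 (adjusted p = 0.171 by edgeR). The lines also differ in origin, since PCGF35 is 1 line and PCGF35_SPOC is 2 clones, and the mutation and the clone history cannot be told apart.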

How the results depend on the processing

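The fall of the 8 genes over differentiation kept its direction in every alternative run, and 7 to 8 were called on leaving out single libraries. With the replicate block in the compared groups alone, the number of the 8 called went from 0 to 5 for dTAG-13 in PCGF35, from 0 to 3 for its difference between the lines, and from 0 to 1 for Xist induction. Without the block, those groups alone gave 0, 0 and 0. Over the single stages it went from 0 to 6 with the block and to 4 in the compared groups alone without it. For SPOC against WT the 1 call became 0 on NPC day 3 alone, 0 on day 6 alone, 0 without TMM and 3 with the groups alone, and 0 on leaving out any of its 8 libraries. For PCGF35_SPOC against PCGF35 the 0 became 1 with DESeq2, 4 without clone F10 (0 without F6) and 0 to 1 without single libraries (1 without untreated PCGF35 replicate 2 of ES day 0 or of ES day 1). For DelPID against WT the 4 became 0 on day 3 alone, 2 on day 6 alone, and 2 to 5 without single libraries (2 without DelPID NPC day 6 replicate 2). The replicate numbers of WT and DelPID share only a number (correlations of -0.0726 to -0.065), and a block on them called 3. The difference in differentiation between the degron lines went from 0 to 2 without clone F10 (0 without F6). Without a clone, 1 library per group remained, assumed to vary like the other groups. The alternatives that use 1 stage or leave out a clone were chosen after seeing the data. The shares of all genes called are not given beside the counts of this section, so these counts describe the 8 genes alone. The cause of these changes was not tested. Precision is limited by 2 libraries in most groups and, for Mael and Slc25a31, by few fragments.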
